A study of Mus musculus with 21 samples.

Results

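A set of 10 genes of the BMP and TGF-beta pathways was followed through the differentiation of mouse embryonic stem cells into motor neurons: Id1, Id2, Id3, Id4, Smad3, Smad6, Smad7, Bambi, Bmp4 and Bmp7. They were listed by name, with earlier results of these data known. All 10 were found among the 55400 genes of the count and FPKM tables by matching Ensembl identifiers to gene symbols. WT cultures derived from C57BL/6 mESCs were harvested at D4 (pMN, the motor neuron progenitor stage), D4H8 (8 h later, pnMN, a mixture of progenitor and proneural cells), D5 (nbMN, newborn motor neurons) and D6 (maturing motor neurons of the HMC type). At D4H8, D5 and D6 a further group, D4H8+GSKJ4, D5+GSKJ4 and D6+GSKJ4, had received GSKJ4, an inhibitor of the H3K27 demethylases Kdm6a and Kdm6b, from a day before harvest. Each of the 7 groups had 3 biological replicates, so 21 libraries of poly-A RNA were compared. All groups received 1 µM retinoic acid and 0.5 µM of the Sonic Hedgehog agonist SAG from D2, and the protocol added 5 µM of the Notch pathway inhibitor DAPT at D4 and D5. By the protocol the medium given at D5 held DAPT but no retinoic acid or SAG. The D6 and D6+GSKJ4 cultures thus spent their last day without them, which cannot be told apart from stage. DAPT was first added at D4, the time point of the D4 group. Time in DAPT thus differed between D4 and every later group, and it cannot be told apart from stage either. The dose of GSKJ4 and the vehicle given to the other cultures were not given in the sources used here. The cultures came from a single stem cell background grown on fibroblast feeders, were differentiated as embryoid bodies and were not sorted, and the D4H8 stage is by the study's description not fully synchronised.

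BMP ligands bind pairs of type I and type II receptors, which activate Smad1, Smad5 and Smad9, whereas TGF-beta and activin act through Smad2 and Smad3. The Id genes are classic direct targets of the BMP branch, and their proteins hold E proteins away from DNA and so restrain proneural bHLH factors. Smad6 and Smad7 are inhibitory Smads that the pathway induces against itself, and Bambi is a pseudoreceptor without kinase activity. In the neural tube BMP signals from the dorsal side oppose Sonic Hedgehog from the floor plate, and motor neuron progenitors arise in the pMN domain of the ventral neural tube.

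On the mouse assembly GRCm38, Id1 lies at chr2:152736251-152737410 (plus strand), Id2 at chr12:25093799-25097140 (minus), Id3 at chr4:136143497-136145755 (plus) and Id4 at chr13:48261228-48266026 (plus). Smad3 (chr9:63646767-63757994) and Smad6 (chr9:63953076-64022059) are both on the minus strand of chromosome 9. Bmp4 lies at chr14:46383520-46390669 and Bmp7 at chr2:172868012-172940321, both on the minus strand. Id4 overlaps A330033J07Rik and Gm49291 on the other strand, which reached at most 16 and 11 counts in any library. Bmp4 likewise overlaps Gm15217 and Gm15222, with at most 5 and 16 counts. Since the counting strand was not stated, Id4 and Bmp4 carry an uncertainty whose size these counts do not give. Bambi is uncertain as well, since it has a processed copy, Bambi-ps1, which reached 16 counts.

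RefSeq promoter windows, from 250 bases before to 50 after a gene's start on GRCm38.p6, were at hand for 6 of the 10 genes (Id2, Id3, Id4, Smad3, Smad6 and Bmp4). The RefSeq start was the GENCODE start given above for Smad3, Smad6 and Bmp4, but lay 1048 bases downstream of it for Id2, 325 downstream for Id3 and 112 upstream for Id4, so the Id3 site printed here lies inside the gene span above, 245 bases after its start. They were searched on both strands for GTCT, the Smad box, for its palindrome GTCTAGAC, which contains a Smad box on each strand, for the GC-rich Smad site GGCGCC and for the E-box CANNTG. The Smad box is found in 87.98% of the 32851 windows of this length, the E-box in 72.31%, the GC-rich site in 11.87% and the palindrome in 0.2131%. The windows of Id2, Id3, Smad3, Smad6 and Bmp4 held 1, 3, 1, 2 and 2 Smad boxes and that of Id4 held none. Id2 and Id4 held 1 GC-rich site each. The Smad6 window held the palindrome, spanning from 4 bases before to 4 bases after the start. Shown here are the sites of 3 genes that fell between D4 and D6 (Id3, Smad6 and Smad3) and of the gene that rose most (Id4), 5′ to 3′ on the gene's strand, with the motif in capitals (a Smad box on either strand for Id3 and Smad3, the palindrome for Smad6, the GC-rich site for Id4).
Id3, chr4:136143742-136143771 (plus): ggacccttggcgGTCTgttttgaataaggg
Smad6, chr9:64022045-64022074 (minus): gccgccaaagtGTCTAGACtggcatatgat
Smad3, chr9:63757995-63758244 (minus): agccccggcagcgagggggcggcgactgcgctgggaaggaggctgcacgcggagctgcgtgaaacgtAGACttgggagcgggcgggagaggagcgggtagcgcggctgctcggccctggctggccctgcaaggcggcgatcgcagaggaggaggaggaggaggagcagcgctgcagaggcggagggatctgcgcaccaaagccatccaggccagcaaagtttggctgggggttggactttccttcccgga
Id4, chr13:48260866-48261115 (plus): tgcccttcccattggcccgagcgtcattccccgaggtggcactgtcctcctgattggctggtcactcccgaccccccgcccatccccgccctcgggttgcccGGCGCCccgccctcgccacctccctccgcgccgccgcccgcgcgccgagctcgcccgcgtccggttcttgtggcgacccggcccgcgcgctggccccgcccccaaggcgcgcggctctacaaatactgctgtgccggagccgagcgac
These matches describe letters in the windows and do not show binding.

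Between 14982115 and 34383842 reads were counted on genes per library, with the D4H8 replicate 1 the deepest and the others at most 22725856. The D5+GSKJ4 replicate 2 stood apart, with no count for 39381 genes, where the other libraries had none for 29339 to 32805. In every group replicate 1 had the lowest summed level of 6 pluripotent stem cell markers (6.27 to 32.29 FPKM, against 39.22 to 82.59 in replicates 2 and 3), and all 6 were detected at every stage. All 6 motor neuron markers were detected, and their summed level rose from 7.53 to 19.12 FPKM at D4 to 393.73 to 455.54 at D6. All 5 cycling cell markers went the other way, from 362.72 to 410.53 FPKM summed at D4 to 25.36 to 75.01 at D6. The 5 floor plate markers summed to 32.24 to 40.87 FPKM at D4 and 70.9 to 110.09 at D6, and the 10 feeder fibroblast markers to 9.27 to 22.58 and 16.03 to 36.67. The 8 dorsal progenitor and roof plate markers, the cells that would lie nearest to BMP signals in the neural tube, were low throughout, at 5.48 to 8.96 FPKM summed at D4 and 0.37 to 0.54 at D6. Msx1 is among these 8 and is read again below as a BMP target gene. It gave 5.74, 5.91 and 2.63 FPKM of the D4 sums of 8.48, 8.96 and 5.48. In bulk libraries, fewer cells of a type and less RNA per cell cannot be told apart, and the part that any of these cell types has in the results below was not tested.

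Between D4 and D6 the 10 genes did not move as one. Id1, Id3, Smad3 and Smad6 fell, Id4, Bambi and Bmp7 rose, and Id2, Smad7 and Bmp4 did not pass the test. The question was how the expression of these genes is staged along motor neuron differentiation, and it was tested on the counts by quasi-likelihood in edgeR, at a Benjamini-Hochberg adjusted p under 0.05 over 17519 genes, all 10 members included. Of all tested genes 32.9% were raised and 31% lowered in D6 against D4, so 3 raised and 4 lowered of 10 is close to the share over all genes. For 7 members the D4 and D6 libraries did not overlap, against 69.3% of all tested genes. The median log2 fold change was -0.18 over the members and -0.04 over all tested genes.

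Id1 (ENSMUSG00000042745) measured 46.92, 45.29 and 38.19 FPKM in the 3 libraries at D4 and 28.88, 27.68 and 23.76 at D4H8. It measured 10.45, 6.63 and 6.51 FPKM at D5 and 2.32, 5.63 and 5.00 at D6. Every stage lay below the one before, without overlap between neighbouring stages. From D4 to D6 the mean went from 43.5 FPKM (SD 4.64, n = 3) to 4.32 (SD 1.76), a log2 fold change of -3.29 (SE 0.28, adjusted p 2.65e-07 by edgeR).

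Id3 (ENSMUSG00000007872), the most abundant of the 10 genes at D4 per kilobase, followed the same course from a higher level. Its libraries held 78.79, 103.25 and 87.51 FPKM at D4, then 83.43, 69.21 and 56.35 at D4H8. At D5 they held 12.81, 16.37 and 17.18 FPKM and at D6 7.59, 9.64 and 12.39. D4 and D4H8 overlapped, whereas D5 lay below D4H8 and D6 below D5. The mean fell from 89.9 FPKM (SD 12.4) to 9.87 (SD 2.41) between D4 and D6, a log2 fold change of -3.12 (SE 0.19, adjusted p 9.43e-09 by edgeR).

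Id4 (ENSMUSG00000021379) ran in the opposite direction. It was close to absent at D4, with 0.37, 0.38 and 0.82 FPKM (32, 25 and 51 counts), and at D4H8, with 0.51, 0.45 and 0.52 FPKM. It reached 13.45, 10.39 and 7.71 FPKM at D5 and 26.35, 35.84 and 19.42 at D6. The D5 libraries were all above those of the earlier stages and all below those of D6. From D4 to D6 the mean FPKM rose from 0.523 (SD 0.257) to 27.2 (SD 8.24), 52.0 times higher, and the log2 fold change was 5.80 (SE 0.33, adjusted p 4.51e-09 by edgeR).

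Id2 (ENSMUSG00000020644) stayed within a narrow band, from 20.05 to 44.67 FPKM over the 12 untreated libraries. Its mean was 35.4 FPKM (SD 8.58) at D4, close to the D4H8 mean of 35.5 (SD 4.64), and then 28.3 (SD 2.87) at D5 and 24.5 (SD 4.99) at D6, with D4 and D6 overlapping. The log2 fold change of -0.48 (SE 0.22) between D4 and D6 did not pass (adjusted p 0.0666 by edgeR). The call turned with single libraries, since without D4 replicate 3 the adjusted p was 0.0116 and without D6 replicate 1 it was 0.0177. Of 12 left-out fits these 2 passed, and without D4 replicate 1 the edgeR adjusted p was 0.332.

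**Figure D1:**
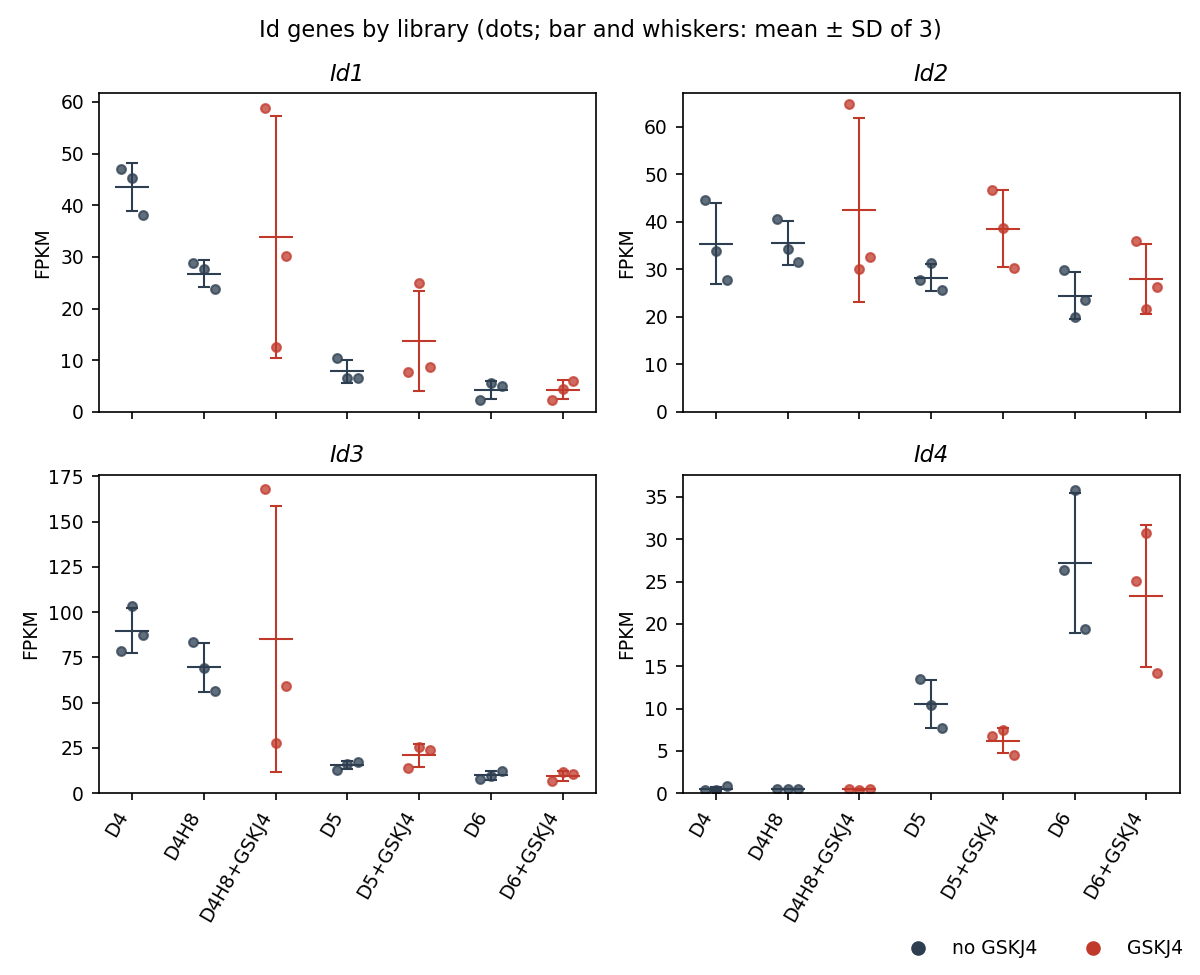
FPKM (y axis) of Id1, Id2, Id3 and Id4 in each of the 21 libraries by group (x axis), with dots for libraries and a bar with whiskers for the mean and SD of 3. Id1 and Id3 step down from D4 to D6, Id4 steps up from under 1 FPKM, Id2 stays between 20.05 and 64.78 FPKM, and the D4H8+GSKJ4 libraries spread most for Id1 and Id3.

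The 4 Id genes therefore changed places. Summed over the 4 genes, D4 had 169 FPKM (SD 14.4), D4H8 132 (SD 20.6), D5 62.1 (SD 4.34) and D6 65.9 (SD 5.39). Id3 made up 53.1% of that sum at D4 and 15.2% at D6, and Id1 25.7% and 6.57%. Id4 went from 0.319% at D4 to 16.8% at D5 and 40.8% at D6, ranging from 32.2% to 50.4% over the 3 D6 libraries. Id2 held 20.9% at D4 and 37.5% at D6, a gain in share while its own level did not rise. The D5 and D6 sums overlapped, from 57.1 to 64.75 FPKM and from 60.38 to 71.16 FPKM, so the composition changed between them while the sum differed by less than the spread between replicates.

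**Figure D2:**
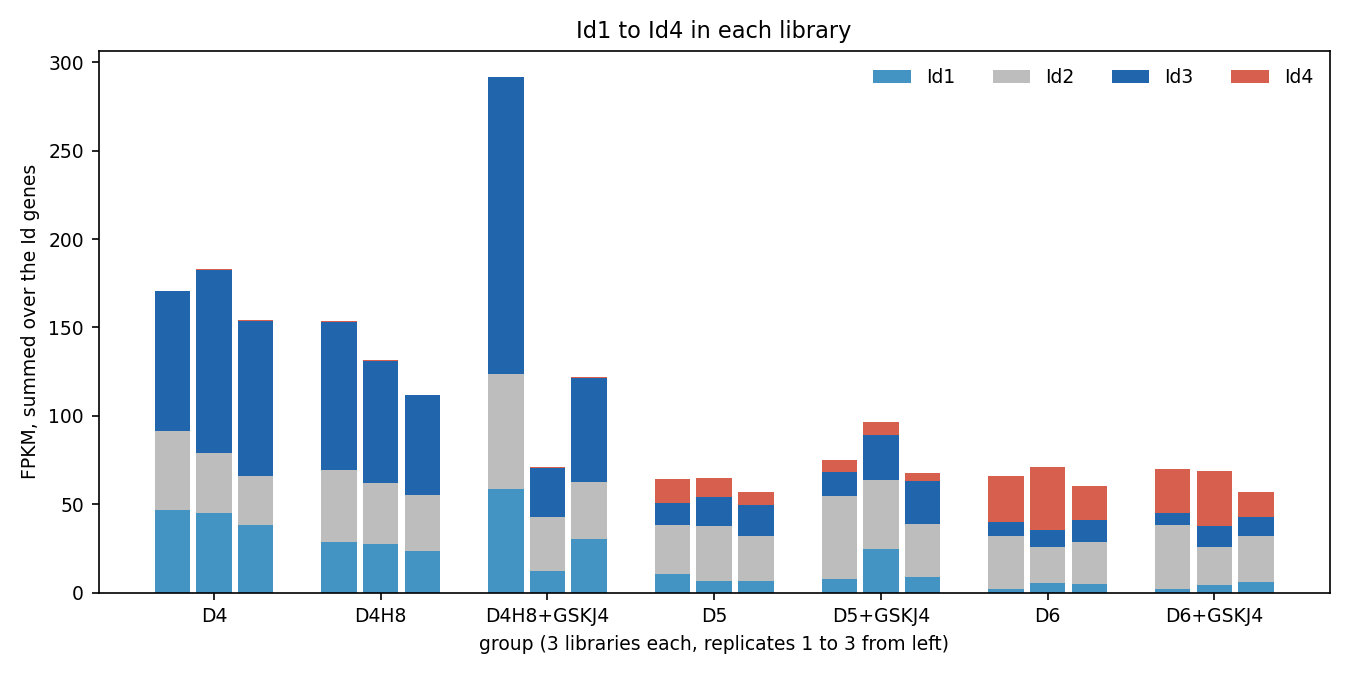
FPKM summed over Id1, Id2, Id3 and Id4 (y axis) in each library, 3 bars per group (x axis) with colours for the genes. Id3 and Id1 take most of each bar at D4 and D4H8, and Id4 takes 32.2% to 50.4% of the 3 D6 bars.

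Smad3 (ENSMUSG00000032402), the receptor-regulated Smad of the TGF-beta branch, measured 13.71, 16.65 and 20.30 FPKM at D4 and 19.77, 17.16 and 19.53 at D4H8. It then dropped to 8.69, 10.80 and 10.71 FPKM at D5 and 7.02, 7.38 and 8.22 at D6. All 6 later libraries lay below all 6 earlier ones. The log2 fold change between D4 and D6 was -1.09 (SE 0.13, adjusted p 4.63e-06 by edgeR).

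The inhibitory Smads parted. Smad6 (ENSMUSG00000036867), which mainly restrains BMP receptors, measured 3.75, 4.53 and 4.63 FPKM at D4, 4.38, 4.13 and 4.21 at D4H8, 2.43, 3.04 and 2.73 at D5, and 0.44, 1.29 and 1.39 at D6. It was flat over the first step and lower without overlap at each later step, with a log2 fold change of -1.99 (SE 0.29, adjusted p 3.93e-05 by edgeR) from D4 to D6. Smad7 (ENSMUSG00000025880, chr18:75367529-75395935, plus strand), which acts on both branches, ranged from 3.01 to 5.57 FPKM over the untreated libraries, and its log2 fold change of 0.33 (SE 0.18) from D4 to D6 did not pass (adjusted p 0.12 by edgeR). Without D6 replicate 1 Smad7 had an adjusted p of 0.0402. Only that 1 of 12 left-out fits passed, and without D6 replicate 3 the edgeR adjusted p was 0.319.

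Bambi (ENSMUSG00000024232, chr18:3507923-3516404, plus strand) was low at all stages and higher at D6. Its libraries held 1.01, 0.91 and 1.04 FPKM at D4 and 1.63, 1.67 and 2.09 at D6, without overlap, for a log2 fold change of 0.92 (SE 0.22, adjusted p 0.00247 by edgeR). The D4H8 mean was 0.923 FPKM (SD 0.185) and the D5 mean 1.40 (SD 0.225).

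Of the ligands, Bmp7 (ENSMUSG00000008999) rose and Bmp4 (ENSMUSG00000021835) held a low level. Bmp7 measured 7.88, 8.81 and 11.71 FPKM at D4, 8.68, 8.14 and 10.40 at D4H8, 13.71, 12.88 and 13.48 at D5, and 24.83, 22.30 and 20.92 at D6. D4 and D4H8 overlapped and each later stage lay above, for a log2 fold change of 1.34 (SE 0.14, adjusted p 1.8e-06 by edgeR) from D4 to D6. Bmp4 ranged from 0.77 to 2.01 FPKM over the untreated libraries, and its log2 fold change of 0.12 (SE 0.35) from D4 to D6 did not pass (adjusted p 0.774 by edgeR). By mean FPKM at D6, Bmp7 exceeded Bmp4 by 22.7 to 1.64.

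**Figure D3:**
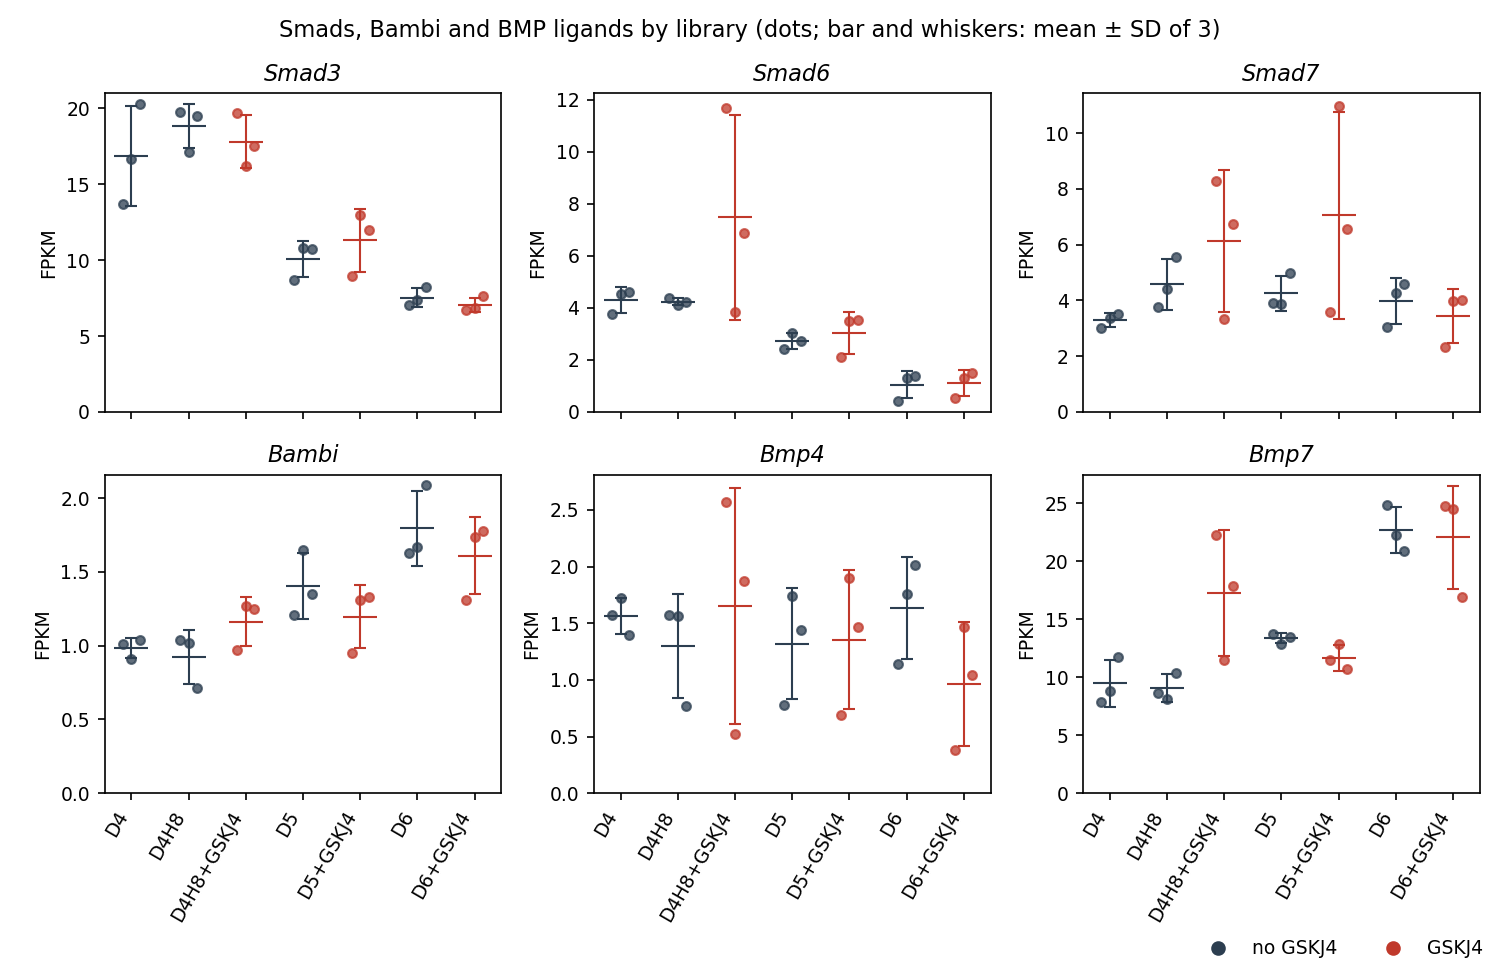
FPKM (y axis, a scale of its own per gene) of Smad3, Smad6, Smad7, Bambi, Bmp4 and Bmp7 by group (x axis), with dots for libraries and a bar with whiskers for the mean and SD of 3. Smad3 and Smad6 step down after D4H8, Bmp7 and Bambi step up, and Bmp4 stays between 0.38 and 2.57 FPKM.

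When the course was divided into its steps, most of the change fell after D4H8. In the first step, D4H8 against D4, edgeR called 0 of the 10 members (4.38% of all tested genes in either direction), DESeq2 also called 0, and 3 members had an unadjusted p under 0.05. Id1 was lower and Smad7 higher without overlap (24.5% of all tested genes did not overlap). Their log2 fold changes were -0.76 (SE 0.25, adjusted p 0.129 by edgeR) for Id1 and 0.41 (SE 0.18, adjusted p 0.253) for Smad7. Without D6 replicate 1, which shares the fit, Id1 had an adjusted p of 0.0416. Only that 1 of 12 left-out fits passed for Id1, and without D4 replicate 1 its edgeR adjusted p was 0.416.

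From D4H8 to D5, 2 members were raised (17.2% of all tested genes) and 3 were lowered (10.5%). Id4 rose by a log2 fold change of 4.41 (SE 0.32, adjusted p 4.48e-07 by edgeR) and Bmp7 by 0.56 (SE 0.14, adjusted p 0.00816). Id3 changed by -2.18 (SE 0.19, adjusted p 1.64e-06 by edgeR), Id1 by -1.76 (SE 0.27, adjusted p 0.000234) and Smad3 by -0.90 (SE 0.13, adjusted p 0.000121). Groups did not overlap for 8 members, against 43.1% of all tested genes. The other 3 of these were Id2, Smad6 and Bambi, whose adjusted p did not pass, although that of Smad6 was 0.00871 without D6 replicate 1. Smad6 passed in only that 1 of 12 left-out fits, and without D5 replicate 1 its edgeR adjusted p was 0.227. Over this step the cycling cell markers fell in 5 of 5 (summed, 354.73 to 374.95 FPKM at D4H8 and 122.97 to 182.84 at D5) and the motor neuron markers rose in 6 of 6.

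From D5 to D6, 2 members were raised (19.2% of all tested genes) and 3 lowered (15.1%), and 6 did not overlap (48.5%). Id4 rose by 1.48 (SE 0.26, adjusted p 0.000728 by edgeR) and Bmp7 by 0.88 (SE 0.14, adjusted p 0.00034) on the log2 scale. Smad6 changed by -1.29 (SE 0.29, adjusted p 0.00387 by edgeR). Id1 at -0.77 (SE 0.28, adjusted p 0.0488 by edgeR) and Id3 at -0.54 (SE 0.19, adjusted p 0.0386) passed narrowly. Same-numbered libraries of D5 and D6 deviated together, and with the replicate number as a block the edgeR adjusted p of Id1 was 0.0548. Leaving out D5 replicate 1 or D6 replicate 1 moved Id1 to -0.48 (adjusted p 0.207 by edgeR and 0.182), and leaving out D4 replicate 2, D4H8 replicate 1, 2 or 3, or D6 replicate 3 gave it adjusted p values from 0.0552 to 0.0651. Id3 did not pass without D4H8 replicate 2 (adjusted p 0.0526 by edgeR), D5 replicate 2 (0.0855), D5 replicate 3 (0.0955), D6 replicate 1 (0.158) or D6 replicate 2 (0.102). Smad3, at -0.30 (SE 0.13, adjusted p 0.0797), passed without D4 replicate 1 (0.045), D4 replicate 3 (0.0478) or D5 replicate 1 (0.0406).

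**Figure D4:**
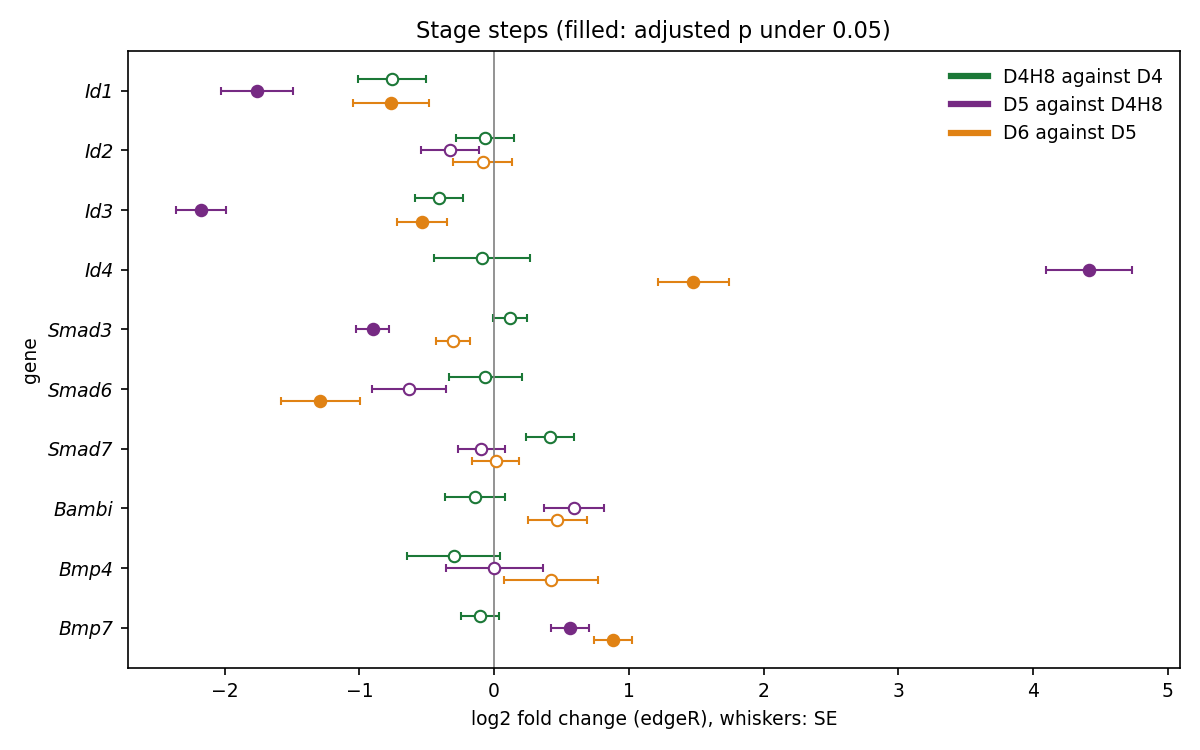
Log2 fold change by edgeR (x axis) of the 10 genes (y axis) over the 3 stage steps, with whiskers for the SE and filled symbols for an adjusted p under 0.05. In the first step every symbol is open, and the largest shifts, Id4 at 4.41 and Id3 at -2.18, belong to the step from D4H8 to D5.

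The other genes of the pathway, 76 in 9 lists with no member among them, were read in the same fit. The lists came from general knowledge and were chosen with earlier results of these data known. Of the 68 that were tested, 24 were raised and 13 lowered between D4 and D6, where 32.9% of all tested genes were raised and 31% lowered. Among 15 receptors and coreceptors 8 were raised and 3 lowered. Rgmb, a BMP coreceptor, rose from 2.11 FPKM (SD 0.524) to 26.3 (SD 4.24), a log2 fold change of 3.72 (SE 0.20, adjusted p 2.57e-09 by edgeR). Acvr1b, an activin type I receptor, rose from 10.5 FPKM (SD 1.68) to 43.9 (SD 4.23). Acvrl1, a type I receptor of endothelial cells, passed at a very low level (0.0533 to 0.33 FPKM). Of the 5 other Smads 3 were raised and none lowered. These were Smad1 (from 5.11 FPKM, SD 1.24, at D4 to 10.99 at D6), Smad9 (0.393 to 1.20 FPKM) and Smad2 (13.0 to 17.4 FPKM), so signal-carrying Smads of both branches went the other way from Smad3.

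Of 7 further ligands listed as BMP family, 5 were tested. The list does not show which Smad branch a ligand acts through. Gdf11 rose from 8.08 to 19.4 FPKM (log2 fold change 1.32, SE 0.16, adjusted p 7.48e-06 by edgeR) and Bmp2 fell from 2.74 to 0.577 FPKM (log2 fold change -2.22, SE 0.36, adjusted p 9.4e-05). Among 11 genes listed in the TGF-beta, activin and nodal ligand group 3 of 10 tested were raised, a count that does not separate agonists from antagonists. Tgfb2 went from 0.647 to 4.30 FPKM, Inha, which encodes the inhibin alpha subunit, from 3.01 to 9.06 FPKM, and Tgfb3 from 0.86 to 1.82 FPKM. The secreted antagonists were mostly low, and 4 were raised and 1 lowered of 10 tested. Nbl1 (0.617 to 1.73 FPKM) and Chrd (0.497 to 1.18 FPKM) rose between D4 and D6. Of 8 intracellular attenuators 2 were raised and 3 lowered, among them Pmepa1 (0.493 to 2.71 FPKM), Tgif1 (9.03 to 2.45 FPKM) and Tgif2 (4.35 to 0.997 FPKM).

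Other BMP target genes did not all follow Id1 and Id3. Of 5 tested, 2 were lowered and 1 raised between D4 and D6. Msx1, a homeobox gene of dorsal neural and mesenchymal cells, measured 5.74, 5.91 and 2.63 FPKM at D4 and 0, 0.12 and 0 at D6, and Atoh8 went from 2.57 to 0.557 FPKM (log2 fold change -2.14, SE 0.36, adjusted p 0.000133 by edgeR). Hey1, a bHLH repressor that is also a Notch target, rose from 3.94 to 10.1 FPKM (log2 fold change 1.43, SE 0.29, adjusted p 0.000565). Of the 7 TGF-beta target genes 2 were raised and none lowered. Cdkn1a, the cell cycle inhibitor p21, went from 17.2 to 22.7 FPKM (log2 fold change 0.46, SE 0.14, adjusted p 0.0121), and Tgfbi from 1.45 to 4.37 FPKM (log2 fold change 1.68, SE 0.56, adjusted p 0.0178). Both calls ended with single libraries left out, that of Cdkn1a without D4 replicate 2 (adjusted p 0.0567 by edgeR) or D6 replicate 2 (0.052) and that of Tgfbi without D4 replicate 1 (0.0744), D4 replicate 2 (0.0641) or D6 replicate 3 (0.0699). The 3 E proteins, the partners that Id proteins bind, were all lowered. Tcf3 went from 67.6 FPKM (SD 11.6) to 36.9 (SD 3.73), Tcf12 from 12.6 to 8.55 and Tcf4 from 2.71 to 1.61.

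GSKJ4 was compared with the untreated culture of the same stage, which asks how the 10 genes respond when Kdm6 demethylase activity is inhibited. Without the replicate number as a block edgeR called no member at any of the 3 stages. With it, edgeR called 1 at D4H8, Bmp7, which was higher with GSKJ4, and 1 at D6, Id4, which was lower. The same-numbered treated and untreated libraries deviated together for all 3 numbers at D6, but not for all 3 at D4H8. The treated libraries at D4H8 differed widely among themselves. At D4H8 edgeR called 0 of 10 members without the block (3.96% of all tested genes in either direction). There 2 had an unadjusted p under 0.05, and DESeq2 called 1, Bmp7. With the block edgeR called 1 member at D4H8, also Bmp7, and 2274 of 16269 tested genes. At D5 the count was 0 without the block (0.00613% of all tested genes), with 1 unadjusted p under 0.05, 0 by DESeq2 and 0 with the block. At D6 the count was 0 without the block (0% of all tested genes), with 0 unadjusted and 0 by DESeq2, and 1 with the block (1.58% of all tested genes). Treated and untreated libraries did not overlap for 1 member at D4H8 (32.9% of all tested genes), 2 at D5 (11.6%) and 0 at D6 (5.3%).

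The member with the largest shift at D4H8 was Bmp7. It measured 22.30, 11.52 and 17.88 FPKM in the D4H8+GSKJ4 libraries against 8.68, 8.14 and 10.40 without the inhibitor, so all 3 treated libraries were above all 3 untreated ones. The log2 fold change was 0.88 (SE 0.23, adjusted p 0.0611 by edgeR), and DESeq2 gave an adjusted p of 0.0137. With the replicate number as a block Bmp7 had 0.85 and an edgeR adjusted p of 0.0169. Without D4H8+GSKJ4 replicate 2 the log2 fold change was 1.06 (adjusted p 0.0172 by edgeR). Only that 1 of the 6 left-out fits passed for Bmp7, and without D4H8 replicate 1 the edgeR adjusted p was 0.247. Smad6 measured 11.68, 3.86 and 6.89 FPKM with GSKJ4 and 4.38, 4.13 and 4.21 without. Its lowest treated library lay below all the untreated ones, and the log2 fold change of 0.76 (SE 0.33) did not pass (adjusted p 0.195 by edgeR). Without D4H8+GSKJ4 replicate 2 it was 1.04 (adjusted p 0.0391 by edgeR). Smad6 too passed in only that 1 of 6 left-out fits, and without D4H8+GSKJ4 replicate 1 its edgeR adjusted p was 0.503.

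The spread among the D4H8+GSKJ4 libraries ran through most of the members. Id1 measured 58.79, 12.53 and 30.17 FPKM there, Id3 167.83, 27.93 and 58.95, and Bmp4 2.57, 0.52 and 1.87. For 8 of the 10 members, Id4 and Bambi aside, replicate 1 was highest and replicate 2 lowest. The ratio of highest to lowest was 6.01 for Id3, 4.94 for Bmp4, 4.69 for Id1, 3.03 for Smad6, 2.49 for Smad7 and 2.15 for Id2. The untreated D4H8 libraries of Id1 and Id3 lay between these extremes, and the edgeR log2 fold changes were 0.27 (SE 0.42) for Id1 and 0.21 (SE 0.50) for Id3. The cell-type markers moved in the same libraries. The 5 motor neuron progenitor markers summed to 90.34, 42.71 and 89.01 FPKM with GSKJ4 against 292.66, 214 and 258.3 at D4H8 without it, lower without overlap, with 3 of 5 lowered and a median log2 fold change of -2.22. The 6 motor neuron markers summed to 27.14, 11.59 and 21.29 FPKM against 60.15, 55.25 and 58.49, with 3 of 6 lowered. Both lists were lowest in replicate 2, as most members were. The cycling cell markers summed to 218.72, 369.11 and 277.61 FPKM, in the reverse order, against 354.73 to 374.95 untreated, and 0 of 5 were called. The feeder fibroblast markers summed to 17.58, 21.82 and 34.8 FPKM, overlapping the untreated 9.99 to 18.94, with 0 of 9 tested called. The neural crest markers summed to 10.3, 6.08 and 7.55 (3.89 to 4.39 untreated), with 1 of 3 tested raised. The pluripotent stem cell markers summed to 32.29, 77.77 and 82.59 (11.13 to 57.54 untreated), with 0 of 6 called. The floor plate markers summed to 65.24, 31.24 and 41.41 (44.64 to 54.3 untreated), in the order of most members, with 0 of 5 called. Of 3 astroglial and radial glial markers tested, 2 were lowered. The part of these differences in the spread, and in the values of Bmp7 and Smad6 above, was not tested.

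At D5 the members to separate without overlap were Id4 and Bmp7. Id4 measured 6.72, 7.41 and 4.53 FPKM in D5+GSKJ4 and 13.45, 10.39 and 7.71 in D5. The lowest untreated library was thus just above the highest treated one, and the log2 fold change of -0.81 (SE 0.27) did not pass (adjusted p 0.976 by edgeR). Bmp7 measured 11.46, 12.82 and 10.69 FPKM treated and 13.71, 12.88 and 13.48 untreated, a log2 fold change of -0.24 (SE 0.15, adjusted p 0.976 by edgeR). Id1 (7.75, 24.92 and 8.70 FPKM) and Smad7 (3.60, 10.99 and 6.56 FPKM) were highest in D5+GSKJ4 replicate 2, the library with the most genes at 0. The 6 motor neuron markers summed to 142.39 to 171.01 FPKM in D5+GSKJ4 and 229.14 to 273.1 in D5, lower without overlap as Id4 was, and their part in the Id4 values was not tested.

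At D6 all 10 members overlapped between treated and untreated libraries. Id4 measured 25.02, 30.71 and 14.15 FPKM with GSKJ4 and 26.35, 35.84 and 19.42 without, and each treated library was below the untreated library of its number. The log2 fold change was -0.23 (SE 0.32, adjusted p 1.0 by edgeR). With the replicate number as a block Id4 had -0.25 and an edgeR adjusted p of 0.0457. The whole-table count moved with it, from 0 to 257 genes (222 had an unadjusted p under 0.05 without the block, and DESeq2 called 1). Bmp4 measured 0.38, 1.47 and 1.04 FPKM against 1.14, 1.76 and 2.01, with a log2 fold change of -0.78 (SE 0.46, adjusted p 1.0). It too was lower in 3 of 3 pairs, as were Smad3 and Smad7, whereas Id2 and Smad6 were higher in 3 of 3. None of these 5 passed with the block, where edgeR gave adjusted p values of 0.197 for Bmp4, 0.198 for Id2, 0.449 for Smad7, 0.641 for Smad3 and 0.927 for Smad6.

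**Figure D5:**
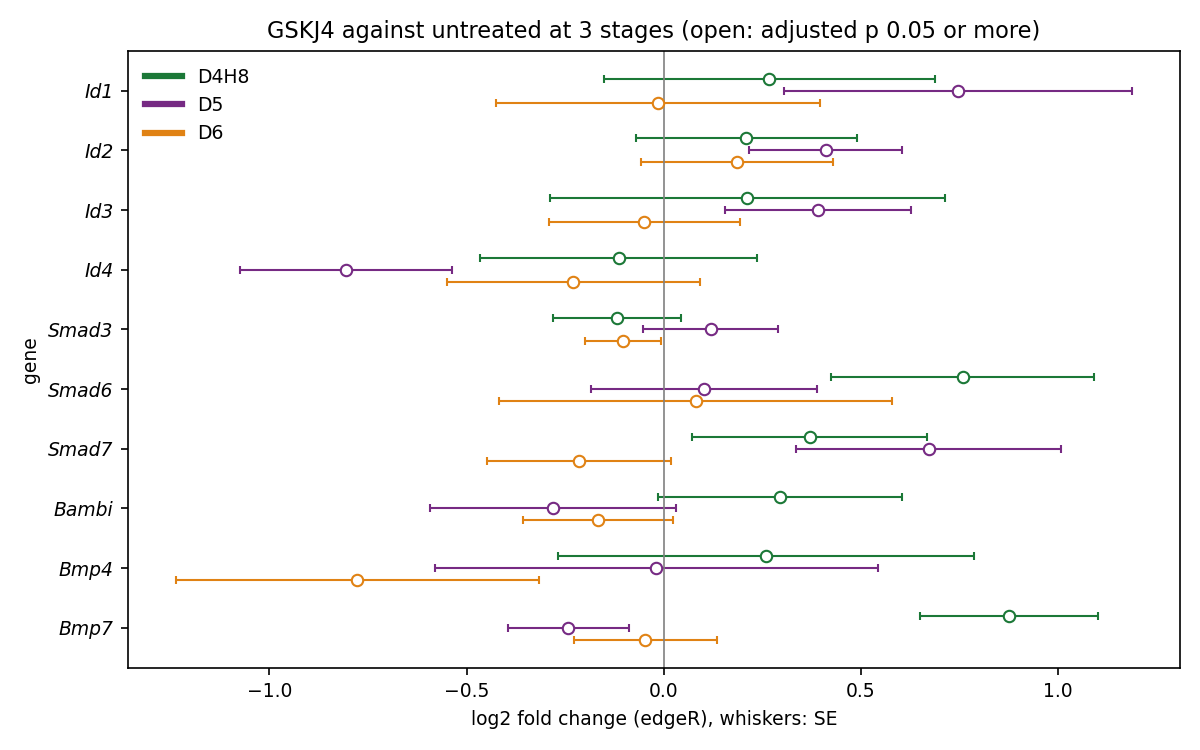
Log2 fold change of GSKJ4 against untreated by edgeR without the replicate block (x axis) for the 10 genes (y axis) at D4H8, D5 and D6, with whiskers for the SE and open symbols for an adjusted p of 0.05 or more. Every symbol is open, Bmp7 and Smad6 lie furthest right at D4H8 (0.88 and 0.76), and Id4 lies furthest left at D5 (-0.81).

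Whether the response to GSKJ4 differed between stages was tested as an interaction over 18 libraries, and edgeR called 0 members in each of the 3 differences. Of all tested genes 0.249% passed for D5 against D4H8, 0.735% for D6 against D4H8 and 0% for D6 against D5. Bmp7 came nearest, with its response lower by a log2 difference of -1.13 (SE 0.28, adjusted p 0.129 by edgeR) at D5 than at D4H8 and of -0.91 (SE 0.28, adjusted p 0.145) at D6 than at D4H8. DESeq2 gave adjusted p values of 0.0229 and 0.0491 for these differences, and without D4H8+GSKJ4 replicate 2 the edgeR adjusted p of the first was 0.0479. Only that 1 of 18 left-out fits passed for the first difference, and without D4H8 replicate 1 its edgeR adjusted p was 0.356. For the second difference 0 of 18 passed. In the first of the differences 1 member had an unadjusted p under 0.05, in the second 1 and in the third 0.

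D4H8+GSKJ4 was also compared with untreated D4, although those cultures had been in the inhibitor since before D4, so D4 is an earlier stage and not their starting point. edgeR called 0 members (2.1% of all tested genes), DESeq2 called 0, 2 had an unadjusted p under 0.05, and 0 members separated without overlap (30% of all tested genes did). Bmp7 had a log2 fold change of 0.76 (SE 0.24, adjusted p 0.0978 by edgeR) and Smad7 of 0.77 (SE 0.29, adjusted p 0.146). Without D4H8+GSKJ4 replicate 2 these were 0.94 (adjusted p 0.0335 by edgeR) for Bmp7 and 1.03 (adjusted p 0.0287) for Smad7. For each gene only that 1 of 6 left-out fits passed. Without D4 replicate 1 the edgeR adjusted p was 0.354 for Bmp7 and 0.388 for Smad7. The D4H8 and D4H8+GSKJ4 comparisons share libraries, so these values stand side by side and do not support each other. Among the 76 other pathway genes GSKJ4 raised 1 at D4H8, Cdkn1a, from 15.7 FPKM (SD 2.41) to 62.44, 25.79 and 35.48, with a log2 fold change of 1.34 (SE 0.28, adjusted p 0.038 by edgeR). That call ended without D4H8 replicate 1 (adjusted p 0.198 by edgeR), 2 (0.136) or 3 (0.124) or D4H8+GSKJ4 replicate 3 (0.0537). No other gene of the lists was called for GSKJ4 at D4H8, D5 or D6 without the block. With the block at D6, 1 of 63 tested was called, the ligand Tgfb2, with a log2 fold change of -0.38 (SE 0.09, adjusted p 0.0407 by edgeR). Msx1 was lower in D4H8+GSKJ4 than at D4 (0.767 against 4.76 FPKM, adjusted p 0.0321 by edgeR), a call that ended without D4 replicate 1 (0.131), 2 (0.142) or 3 (0.0694) or D4H8+GSKJ4 replicate 1 (0.0673).

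Over all 7 groups the order of mean levels was the same for Id1 and Id3, from D4 through D4H8+GSKJ4, D4H8, D5+GSKJ4, D5 and D6 to D6+GSKJ4. Neighbours in that order overlapped in 5 of 6 places for Id1 and in 4 of 6 for Id3. Id4 ran from D6 through D6+GSKJ4, D5 and D5+GSKJ4 to the 3 earlier groups and overlapped in 3 of 6 places. Bmp7 overlapped in 5 of 6 places. For Id2, Smad7, Bambi and Bmp4 all 6 neighbouring pairs overlapped.

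As a description of likeness, the correlation of log2 CPM over the 21 libraries was taken for 13526 genes with a mean of at least 1 CPM. The libraries share their stages, so genes that change with stage correlate. Id1 and Id3 were among each other's 3 most similar genes (r = 0.956), beside Trip6 and Ifrd2 for Id1 and AI506816 and Grwd1 for Id3. Id4 was most like Tubb2a (r = 0.984), a neuronal tubulin, Enpp2 and Tmeff1, and had r = -0.94 with Id3 and -0.96 with Smad3. Smad6 was most like Ajuba (r = 0.980), Col18a1 and Plpp3, and Smad3 was most like Ttll4 (r = 0.975), Pabpc4 and Pfas. Bmp7 was most like Ppp1r13b (r = 0.943), Ehd1 and Fam189a2, and Bambi was most like Ccdc149 (r = 0.873), Spock3 and Aldh1a2. The nearest genes were less alike for Smad7 (Plod3, Coq9 and Cebpb, at most r = 0.879), Id2 (Zhx2, Tmem251 and AC122453.1, at most r = 0.775) and Bmp4 (Tchp, Sox15 and Bpnt1, at most r = 0.712). Smad6 and Smad7 had r = 0.48 with each other, and Bmp4 and Bmp7 r = -0.06.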

How the data were processed

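In the authors' processing, Fastp trimmed the reads, Hisat2 placed them on mm10 and HTSeq-count gave raw counts by gene, with the strand setting not given in the sources used here. They deposited raw counts and FPKM, the FPKM scaled to total counts and exonic length, for 55400 genes in 21 libraries. The deposited FPKM could be rebuilt from counts and lengths to within 0.005. Groups came from the sample labels. Levels are deposited FPKM, and tests used the counts. At the depth of 14982115 to 34383842 reads, every member had at least 14 counts in each library. Counting error is not negligible at the lowest counts, such as 14 for Bmp4 in D6+GSKJ4 replicate 1 and 23 for Smad6 in D6 replicate 1.

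Symbols, matched for 55140 identifiers, came from the annotation table, and positions from GENCODE M21. The tests were edgeR 4.0.16 quasi-likelihood fits in R 4.3.3, with TMM scaling, a filterByExpr minimum of 10 counts and adjustment by Benjamini-Hochberg, on 12 untreated libraries (stages), 6 (GSKJ4 and D4H8+GSKJ4 against D4) or 18 (interactions). On simulated data for GSKJ4 at D4H8, 69.5% of 200 genes changed by 2-fold were recovered with 7 false calls. The simulated spread between replicates was smaller than the one fitted to these libraries (biological coefficient of variation 0.273), and only well-counted genes were changed. That share therefore does not give the recovery to be had in the real comparison. The alternatives were DESeq2 1.42.0, RLE and upper-quartile scaling, 2 other filters, a replicate block, one fit over 21 libraries and each library left out. Replicates are labelled biological, but what separated them is not stated.

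The numbers were taken to pair libraries where all 3 same-numbered correlations of deviations from group means exceeded 0.1. This held for D5 against D4H8 (0.314, 0.147 and 0.136), D6 against D5 (0.310, 0.144 and 0.226) and GSKJ4 at D6 (0.663, 0.316 and 0.446).

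The members and lists were chosen with earlier results of these data known. All 10 members were named in each comparison, with up to 3 called genes of largest fold change per pathway list and comparison and the 3 genes most like each member. A gene that met this rule is not reported here. Ccn2 was listed under its older symbol Ctgf. Python 3.11.15, pandas 2.3.3 and matplotlib 3.10.9 were used for summaries and figures. Identity between Id proteins was planned and not run, since no protein sequence was used here.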

Additional observations from a re-analysis of the deposited data

How the results depend on the processing

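Over all 10 members, the 11 comparisons and every alternative, 2000 log2 fold changes were set beside those reported. The sign differed in 103, and no reported value past the threshold was among them. Calls were lost in 17 and gained in 32. Of the values reported above, Bmp4 between D4 and D6 turned to -0.025 with upper-quartile scaling and ran from -0.032 to 0.30 with single libraries left out, and Id3 with GSKJ4 at D4H8 turned to -0.10 with the replicate block and ran from -0.73 to 0.61. Id1 in that comparison ran from -0.38 to 0.64, and Id4 with GSKJ4 at D6 from -0.46 to 0.041.

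By DESeq2 the genes called for GSKJ4 were 1980 at D4H8 (644 by edgeR), 69 at D5 (1) and 1 at D6 (0), for D4H8+GSKJ4 against D4 1689 (340), and for the interactions 237 (45, D5 against D4H8), 582 (133, D6 against D4H8) and 1 (0, D6 against D5). It called 1 member, Bmp7, in GSKJ4 at D4H8 and in the first 2 interactions, and from D4H8 to D5 it added Smad6 (adjusted p 0.0361) and Bambi (0.0492). Without a filter on low counts edgeR called 1319 genes for D4H8 against D4 (767 with it), 2287 for GSKJ4 at D4H8, 128 at D5, 1870 for D4H8+GSKJ4 against D4, and 351, 626 and 13 for the interactions. There it called 1 member in D4H8 against D4 (Id1, adjusted p 0.00419), in GSKJ4 at D4H8, in D4H8+GSKJ4 against D4 and in the first interaction (Bmp7 in each), and Id2 passed between D4 and D6 (0.00661). With at least 10 counts in every library the interaction of D6 against D4H8 had 208 genes, and Bambi passed from D4H8 to D5 (0.049). One fit over all 21 libraries gave 422 genes for D4H8 against D4, 3218 for D5 against D4H8 (4861 reported), 2048 and 9 for GSKJ4 at D4H8 and D5, and 2456 for D4H8+GSKJ4 against D4. It called Bmp7, 1 member, in GSKJ4 at D4H8 and in D4H8+GSKJ4 against D4, but 3 members instead of 5 from D5 to D6, where Id1 (0.236) and Id3 (0.325) did not pass, and Bmp7 did not pass from D4H8 to D5 (0.0633). RLE scaling gave Id1 an adjusted p of 0.0502 from D5 to D6. Upper-quartile scaling moved the median log2 fold change of all genes between D4 and D6 from -0.04 to -0.19 and the calls from 5761 raised and 5427 lowered to 5144 and 6342. Under it Id2 passed (0.015), as did Smad3 from D5 to D6 (0.0336). The causes were not tested.

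With the replicate block the genes called were 2274, 4 and 257 for GSKJ4 at D4H8, D5 and D6, 1274 for D4H8+GSKJ4 against D4, and 185 and 491 for the interactions with D4H8. The block called 1 member, Bmp7, in GSKJ4 at D4H8 (0.0169) and in the first interaction (0.0341), 1 member, Id4, in GSKJ4 at D6, and Id2 between D4 and D6 (0.0176). For GSKJ4 at D4H8, which was not named as paired, the same-numbered correlations were 0.440, 0.073 and 0.255, so only replicate 2 fell short of 0.1. Whether the libraries are paired outside the comparisons named as paired is not known.

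With single libraries left out the genes called ranged from 350 to 912 for D4H8 against D4, from 43 to 1746 for GSKJ4 at D4H8, from 1 to 6 at D5, from 11 to 1102 for D4H8+GSKJ4 against D4, and from 16 to 172, 40 to 284 and 0 to 1 for the interactions. The lowest counts came without D4H8 replicate 1 for D4H8 against D4, GSKJ4 at D4H8 and both interactions with D4H8, and without D4 replicate 2 for D4H8+GSKJ4 against D4. The highest for GSKJ4 at D4H8 and for D4H8+GSKJ4 against D4 came without D4H8+GSKJ4 replicate 2. Members called ranged from 0 to 1 for D4H8 against D4 and the first interaction, 0 to 2 for GSKJ4 at D4H8 and D4H8+GSKJ4 against D4, and 3 to 6 from D5 to D6. On the log2 FPKM scale, a pseudocount of 0.1 in place of 1 moved 3 of the 10 differences between D4 and D6 by more than the spread between replicates and left 7 within it.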
